A study of Mus musculus with 24 samples.

Results

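The data described here are those for 6 genes that carry hormone signals in the luminal mammary epithelium: Esr1, Greb1, Pgr, Prlr, Foxa1 and Gata3. They were chosen by name, as the estrogen, progesterone and prolactin receptors, a classical estrogen target and the pair of luminal factors that act with the estrogen receptor. They are 6 of the 55288 genes listed in either of the gene tables of the series. Earlier results of these data were known at that choice. The study had itself reported Esr1 and Greb1 in cultured D2.1 from its RNA-seq, so those culture differences are not independent findings. Bulk RNA-seq was made from D2.1 and D2A1 cells, mouse mammary tumor lines that both derive from D2 hyperplastic alveolar nodules of female BALB/c mice, D2.1 being the dormancy-competent line and D2A1 the rapidly growing one. There were 3 libraries of each line in culture, 4 tumors of each line grown in the mammary fat pad (MFP) of female BALB/c mice, and 5 tumors of each line grown in the MFP of female SCID-beige mice. BALB/c hosts are immunocompetent, and SCID-beige hosts lack T and B cells and have defective NK cells. Each tumor library came from 1 tumor, no drug or transgene was part of these groups, and each line is a single established line. By the study's methods, young adult mice were used for tumor studies. The study collected the sequenced tumors at about a common size, so time in the host and age at collection may differ between lines. In tumors these cannot be told apart from line. The study's methods treat repeats in culture as technical, so p-values for cultured cells may measure technical spread only.

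Estrogen receptor alpha, the product of Esr1, is a ligand-activated transcription factor made by the hormone-sensing fraction of luminal cells. FOXA1 opens chromatin ahead of it, GATA3 maintains luminal identity and acts in the same regulatory circuit, and GREB1 is a target of the receptor that also works as its coactivator. The progesterone receptor, encoded by Pgr, is itself induced by estrogen in the mammary gland, and the prolactin receptor, encoded by Prlr, signals through JAK2 and STAT5 toward alveolar growth and milk production.

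The GENCODE mouse annotation placed all 6 genes on GRCm38, each as a protein-coding gene. Esr1 (ENSMUSG00000019768) lies on chr10:4611593-5005614 on the plus strand, Pgr (ENSMUSG00000031870) on chr9:8899833-8968611 on the plus strand and Prlr (ENSMUSG00000005268) on chr15:10177238-10349180 on the plus strand. Greb1 (ENSMUSG00000036523) lies on chr12:16670615-16800886 on the minus strand, Foxa1 (ENSMUSG00000035451) on chr12:57540628-57546916 on the minus strand and Gata3 (ENSMUSG00000015619) on chr2:9857078-9890034 on the minus strand. Greb1 shares 736 exon bases with the antisense gene Gm48140, which had at most 4 counts in a tumor, and the exonic neighbors of Gata3 had at most 15. The latter is below every Gata3 count, but the former is as large as or larger than most Greb1 counts in D2A1 tumors, which are therefore uncertain. Because the strand setting of the counting is not stated, antisense reads cannot be told apart from those of the gene.

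The 4 members that differed between the lines in every setting below (Esr1, Greb1, Foxa1 and Gata3) are shown here by the RefSeq promoter of their first listed start (GRCm38.p6, 250 bases before to 50 bases after the start, written 5′ to 3′ on the gene's strand). Capitals mark the estrogen response element half-site GGTCA or its reverse complement TGACC, searched on both strands.
Esr1, chr10:4611739-4612038, plus strand: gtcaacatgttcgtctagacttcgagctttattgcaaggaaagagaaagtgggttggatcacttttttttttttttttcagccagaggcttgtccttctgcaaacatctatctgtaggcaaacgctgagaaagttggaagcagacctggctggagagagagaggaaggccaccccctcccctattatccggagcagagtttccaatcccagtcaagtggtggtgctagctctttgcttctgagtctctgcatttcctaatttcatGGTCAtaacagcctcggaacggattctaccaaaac
Greb1, chr12:16800837-16801136, minus strand: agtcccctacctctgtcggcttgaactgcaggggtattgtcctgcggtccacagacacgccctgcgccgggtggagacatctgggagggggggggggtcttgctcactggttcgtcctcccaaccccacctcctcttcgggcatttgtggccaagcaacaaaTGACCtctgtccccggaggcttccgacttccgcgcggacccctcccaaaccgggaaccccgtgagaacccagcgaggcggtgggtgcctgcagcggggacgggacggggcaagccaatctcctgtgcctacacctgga
Foxa1, chr12:57546062-57546361, minus strand: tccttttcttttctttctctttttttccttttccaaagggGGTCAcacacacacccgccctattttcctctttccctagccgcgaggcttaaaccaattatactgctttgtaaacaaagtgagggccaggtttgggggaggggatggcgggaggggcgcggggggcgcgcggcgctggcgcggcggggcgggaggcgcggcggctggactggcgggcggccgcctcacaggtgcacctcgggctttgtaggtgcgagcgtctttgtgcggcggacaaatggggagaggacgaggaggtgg
Gata3, chr2:9878551-9878850, minus strand: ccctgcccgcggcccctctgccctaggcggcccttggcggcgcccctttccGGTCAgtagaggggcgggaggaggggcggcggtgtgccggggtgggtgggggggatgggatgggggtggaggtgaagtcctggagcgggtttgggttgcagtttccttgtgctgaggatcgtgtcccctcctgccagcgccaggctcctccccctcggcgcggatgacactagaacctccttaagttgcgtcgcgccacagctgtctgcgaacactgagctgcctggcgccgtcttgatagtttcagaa
The half-site began 15 bases after the start of Esr1 and 88, 210 and 199 bases before the starts of Greb1, Foxa1 and Gata3. Across the 10 RefSeq promoters listed for the 6 genes, 5 held it, against 40.5% of all 32851 mouse promoters of this length, so its presence is close to the general share. The palindromic estrogen response element, in which both half-sites face each other, was in 0 of the 10 and in 0.0700% of all promoters. The forkhead core TGTTTAC was in 2 of the 10, 1 each of Foxa1 and Prlr, and in 3.65% of all promoters, and the GATA core AGATAA was in 0 of the 10 and 11.2% of all promoters. These matches describe the letters of a short window and say nothing about binding.

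Total counts were 16837260 to 24818234 per cultured library and 13566949 to 18355153 per tumor. Levels are given as CPM, read counts scaled to library size, after TMM scaling, a correction for library composition. A floor of 3 counts, the upper limit that a count of 0 allows, corresponded to 0.133 to 0.173 CPM in culture and 0.161 to 0.209 CPM in tumors, and it covers counting error only. In every group, Krt8, Krt18, Krt14, Epcam, Cdh1 and Krt19, markers of mammary epithelium, all had reads. Epcam in cultured D2A1 was near the floor, at 0.0577 to 0.213 CPM. In BALB/c tumors Krt8 and Krt18 ran in opposite directions, with mean Krt8 at 341 CPM in D2.1 and 183 in D2A1. Mean Krt18 was at 31.4 CPM in D2.1 and 354 in D2A1. The sums of the 6 markers hide this. The summed level of the 6 markers was 2347 to 4653 CPM in cultured D2.1, 131 to 341 CPM in cultured D2A1 and 362 to 1248 CPM in tumors. A pair of D2.1 tumors from BALB/c mice stood apart: tumor 1 had 528 CPM and tumor 4 had 61.2 CPM of summed milk protein genes, against 0.123 to 6.27 CPM in the other 16 tumors, and the same tumors had 46.2 and 158 CPM of skin keratinocyte genes, against 1.25 to 6.26 CPM in the others. Values without both tumors are therefore given where they matter. As these are bulk libraries, fewer cells of a type and less RNA per cell cannot be told apart.

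**Figure D1:**
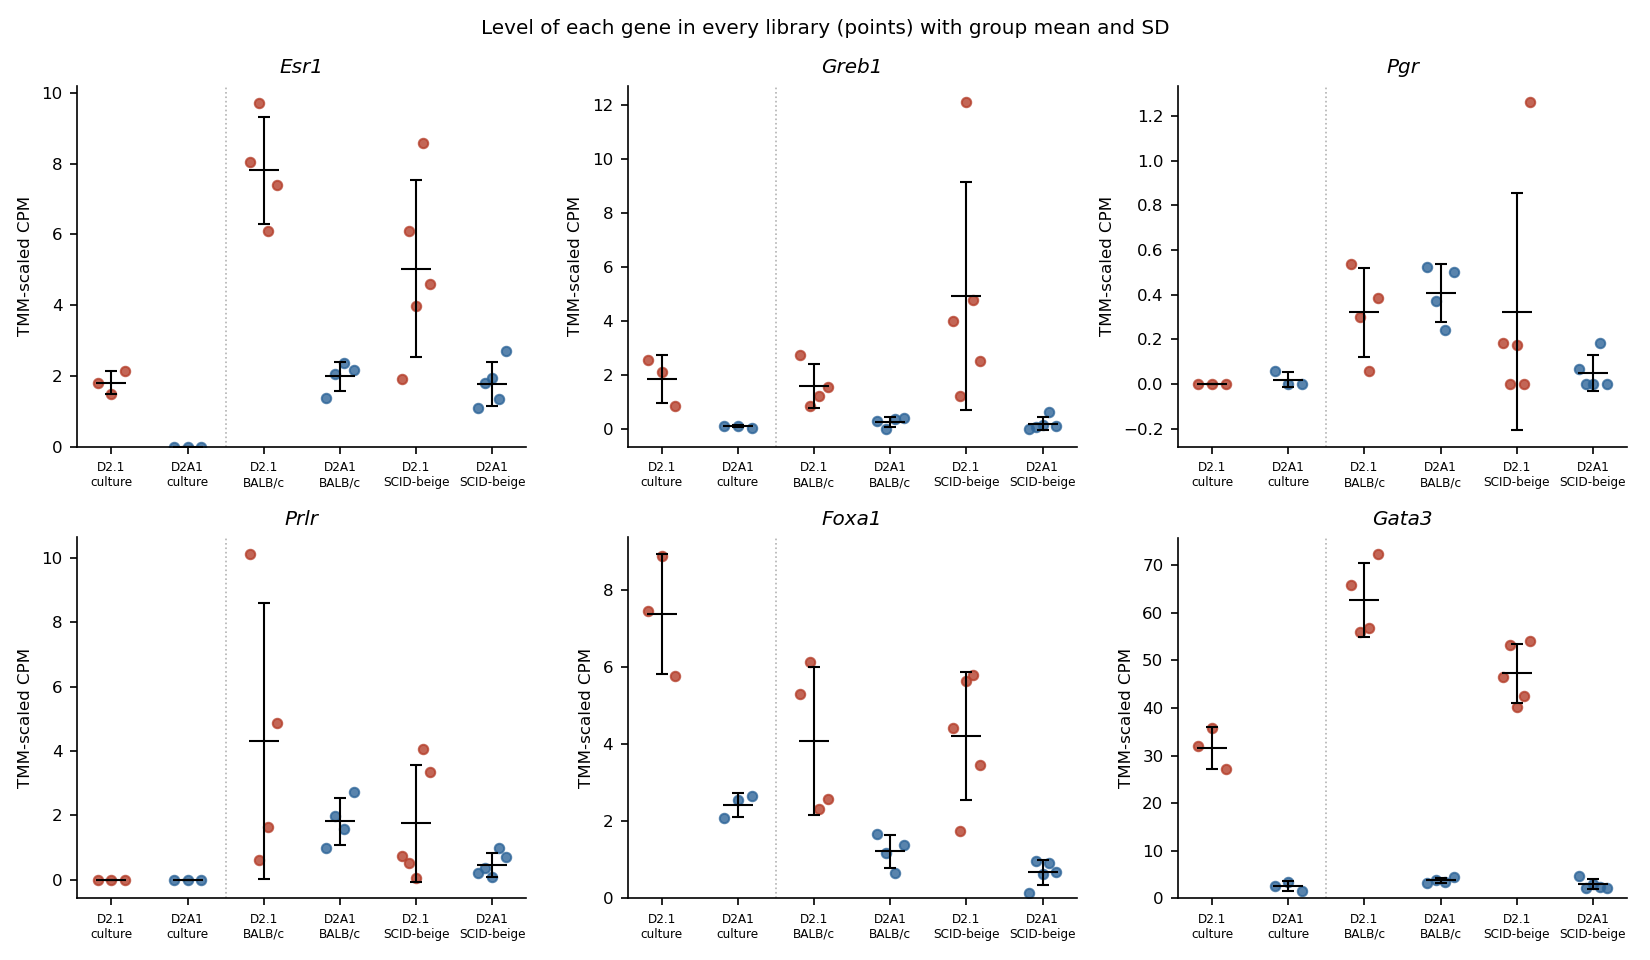
Each panel plots TMM-scaled CPM of 1 gene (y axis, linear) for every library of the 6 groups (x axis); points are libraries, red for D2.1 and blue for D2A1, and bars are the group mean and SD. Gata3 lies at 27.1 CPM or above in each D2.1 library and at 4.75 CPM or below in each D2A1 library, while the D2.1 and D2A1 tumors overlap for Pgr and Prlr.

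The first question was whether the lines differ in these genes, in culture and in each host. In culture, 4 of the 6 genes passed the filter on low counts and all 4 were higher in D2.1 (edgeR quasi-likelihood test, Benjamini-Hochberg adjusted p under 0.05 over all genes), where 24.2% of all genes tested were called higher in D2.1 and 44.9% were called in either direction. In BALB/c tumors 5 passed the filter and 4 were higher in D2.1, against 16.8% of all genes called in that direction and 32.6% called in either. In SCID-beige tumors 5 passed and 4 were higher in D2.1, against 17.2% and 32.1%. No member was called lower in D2.1 in any of the 3 comparisons, and DESeq2 gave the same numbers of 4, 4 and 4. The members called were Esr1, Greb1, Foxa1 and Gata3 each time, Pgr never passed the filter, and Prlr passed it in tumors alone. Esr1 in culture had 0 counts in D2A1, and Greb1 had at most 10 counts in any D2A1 library. Foxa1 in SCID-beige tumors had 2 to 15 counts in D2A1. All of these passed the filter there through the D2.1 libraries, so these calls could only be higher in D2.1.

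**Figure D2:**
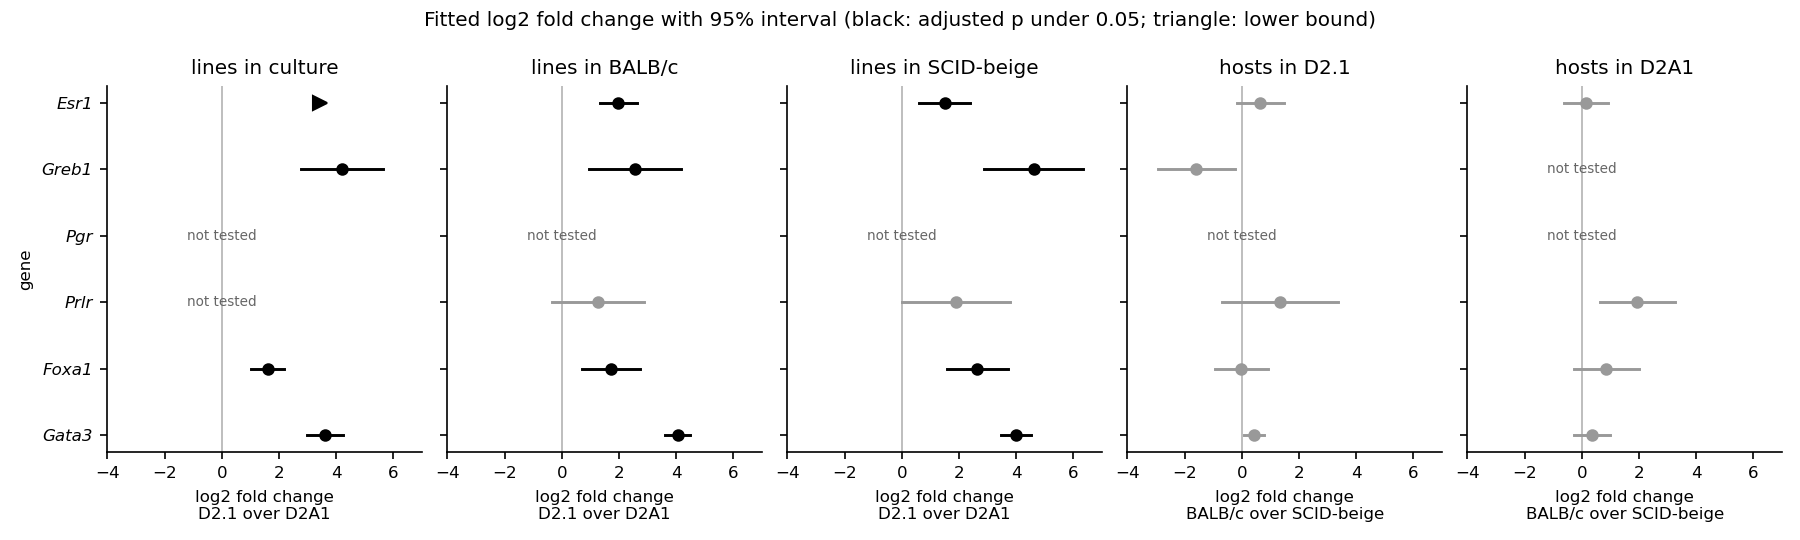
Each panel shows 1 comparison, with the fitted log2 fold change (x axis) of each gene (y axis) as a point and its 95% interval as a line, black where the adjusted p was under 0.05 and gray otherwise; the triangle for Esr1 in culture is a lower bound set by the floor of 3 counts. Esr1, Greb1, Foxa1 and Gata3 are black in the 3 comparisons of lines and every point is gray in both comparisons of hosts.

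Gata3, the luminal identity factor, separated the lines completely in each comparison, as did 28.6% of all genes tested in culture, 16.9% in BALB/c and 12.6% in SCID-beige, counting those higher in D2.1. In culture it was at 32.0, 35.8 and 27.1 CPM in D2.1 and at 2.65, 3.52 and 1.60 CPM in D2A1, so every D2.1 library lay above every D2A1 library. The fitted log2 fold change was 3.61 (SE 0.28), a 12.2-fold difference with an adjusted p of 1.60e-05. In BALB/c tumors it was at 66.0, 56.0, 56.8 and 72.3 CPM in D2.1 and at 3.31, 3.90, 3.38 and 4.55 CPM in D2A1 (log2 fold change 4.05, SE 0.20, 16.6-fold, adjusted p = 6.50e-07). In SCID-beige tumors the D2.1 values were 46.4, 53.3, 40.1, 42.5 and 54.1 CPM and the D2A1 values 4.75, 2.22, 3.07, 2.47 and 2.27 CPM (log2 fold change 3.996, SE 0.25, 16.0-fold, adjusted p = 9.85e-08). No D2A1 tumor reached the lowest D2.1 tumor in either host. Without D2.1 BALB/c tumors 1 and 4 the call in BALB/c stood, and leaving out any single library kept the log2 fold change between 3.35 and 4.20 over the 3 comparisons.

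Foxa1, the pioneer factor, was also higher in D2.1 in each setting, at lower levels. In culture it was at 7.46, 8.90 and 5.79 CPM in D2.1 and at 2.08, 2.55 and 2.66 CPM in D2A1, with no overlap. That was 3.03-fold (log2 fold change 1.60, SE 0.25, adjusted p = 0.000991). In BALB/c tumors the D2.1 values were 5.31, 6.15, 2.32 and 2.57 CPM, with tumors 1 and 2 above tumors 3 and 4, and the D2A1 values were 1.68, 1.18, 0.664 and 1.39 CPM (log2 fold change 1.73, SE 0.46, 3.33-fold, adjusted p = 0.0147). In SCID-beige tumors it was at 4.42, 1.76, 5.64, 5.79 and 3.47 CPM in D2.1 and at 0.138, 0.973, 0.628, 0.928 and 0.694 CPM in D2A1 (log2 fold change 2.64, SE 0.49, 6.24-fold, adjusted p = 0.00109). The groups did not overlap in either host, and the call was kept when any single library was left out.

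Esr1 was detected in D2.1 in culture and had no read in D2A1. The 3 cultured D2.1 libraries had 33, 34 and 40 counts, or 1.80, 1.505 and 2.14 CPM, and the 3 D2A1 libraries had 0 counts, which makes D2.1 at least 10.8-fold higher at the floor of 3 counts per library (adjusted p = 0.000277). Tumors of both lines held Esr1 reads. In BALB/c hosts D2.1 tumors were at 8.04, 9.71, 6.10 and 7.39 CPM and D2A1 tumors at 1.39, 2.04, 2.36 and 2.17 CPM, so each D2.1 tumor lay above each D2A1 tumor (log2 fold change 1.98, SE 0.30, 3.93-fold, adjusted p = 0.000620). In SCID-beige hosts D2.1 tumors were at 1.90, 6.10, 3.97, 8.60 and 4.60 CPM and D2A1 tumors at 1.10, 1.81, 1.95, 1.36 and 2.71 CPM. Here the groups overlapped, since D2.1 tumor 1 lay below 2 of the D2A1 tumors, and the log2 fold change of 1.497 (SE 0.41, 2.82-fold) had an adjusted p of 0.0132. Summed fibroblast markers (Pdgfra, Pdgfrb, Col1a1, Dcn and Lum) were also higher in D2.1 tumors, at 3674 to 7949 CPM against 1142 to 2526 CPM in D2A1 tumors. Pdgfrb alone was not higher in D2.1 in SCID-beige hosts, with means of 490 CPM in D2.1 and 544 CPM in D2A1. Within groups the order varied. Tumor 1 of D2A1 in BALB/c had the lowest Esr1 and the highest sum (2019 CPM) of its group. Tumor 3 of D2.1 in BALB/c had the lowest of both (sum 4954 CPM). In culture, where no host cell is present, the same genes summed to 1892 to 2726 CPM in D2.1 and 128 to 137 CPM in D2A1. In D2.1 this was mostly Col1a1 (2063 CPM), while Dcn and Lum were at 0 in D2A1 and at 0.0477 and 0.0148 CPM in D2.1. The part of fibroblasts in the Esr1 difference between tumors was not tested.

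Greb1, the estrogen target and coactivator, was also higher in D2.1 in each setting, with few reads in D2A1. In culture D2.1 had 47, 48 and 16 counts and D2A1 had 2, 2 and 1, a ratio of 20.01 with a counting interval of 8.32 to 62.8 (adjusted p of the fit 0.000751). In BALB/c tumors D2.1 was at 2.73, 0.844, 1.22 and 1.54 CPM and D2A1 at 0.290, 0, 0.362 and 0.389 CPM (log2 fold change 2.57, SE 0.73, adjusted p = 0.0207), with no overlap. That call was lost without D2.1 tumor 1 (adjusted p = 0.0649), without D2A1 tumor 1 (0.0555) and without D2.1 tumors 1 and 4 together (log2 fold change 1.93, adjusted p = 0.174). In SCID-beige tumors D2.1 was at 3.99, 1.23, 12.1, 4.78 and 2.52 CPM and D2A1 was at 0, 0.0695, 0.140, 0.619 and 0.126 CPM. The log2 fold change was 4.61 (SE 0.81, adjusted p = 0.000695). It became 3.95 without D2.1 tumor 3, the tumor at 12.1 CPM, and 5.75 without D2A1 tumor 4, the only D2A1 tumor above 3 counts in that host, and the call held both times.

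Prlr, the prolactin receptor, had 0 counts in all 6 cultured libraries and at least 1 read in all 18 tumors. In SCID-beige hosts 1 D2.1 tumor and 2 D2A1 tumors were at or under the floor of 3 counts. In BALB/c hosts it was at 10.1, 0.603, 1.63 and 4.89 CPM in D2.1 tumors and at 0.986, 1.98, 1.57 and 2.72 CPM in D2A1 tumors. The 2 highest values belonged to the tumors rich in milk protein transcripts, tumors 1 and 4, and the remaining pair lay within or below the D2A1 range. The log2 fold change of 1.26 (SE 0.73, 95% interval -0.35 to 2.86) did not pass the test (adjusted p = 0.216), fell to 0.39 without D2.1 tumor 1, and was -0.72 without tumors 1 and 4. In SCID-beige hosts D2.1 tumors were at 0.737, 0.528, 0.0576, 4.06 and 3.34 CPM and D2A1 tumors at 0.206, 0.347, 0.0697, 0.990 and 0.694 CPM. D2.1 tumors 4 and 5 lay above all D2A1 tumors, and tumors 1 and 2 lay among them. Tumor 3 had 1 read, as did the lowest D2A1 tumor, so these could not be ordered. The log2 fold change was 1.89 (SE 0.88, 95% interval -0.01 to 3.79, adjusted p = 0.121). Without D2.1 tumor 3, the lowest, the adjusted p became 0.0432 with a log2 fold change of 2.21. Tumor 4 of that group also had the highest sum of milk protein genes among SCID-beige tumors, 6.27 CPM, whereas tumor 5 had 0.441 CPM. Skeletal muscle markers summed to 280 CPM in tumor 4 and 216.2 CPM in tumor 5, against 1.78 to 20.2 CPM in the other 3 D2.1 tumors of that host, and in BALB/c hosts to 375 CPM in D2.1 tumor 1 against 34.5 to 117 CPM in the other 3. The part of milk-producing tissue or muscle in the Prlr level was not tested.

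**Figure D3:**
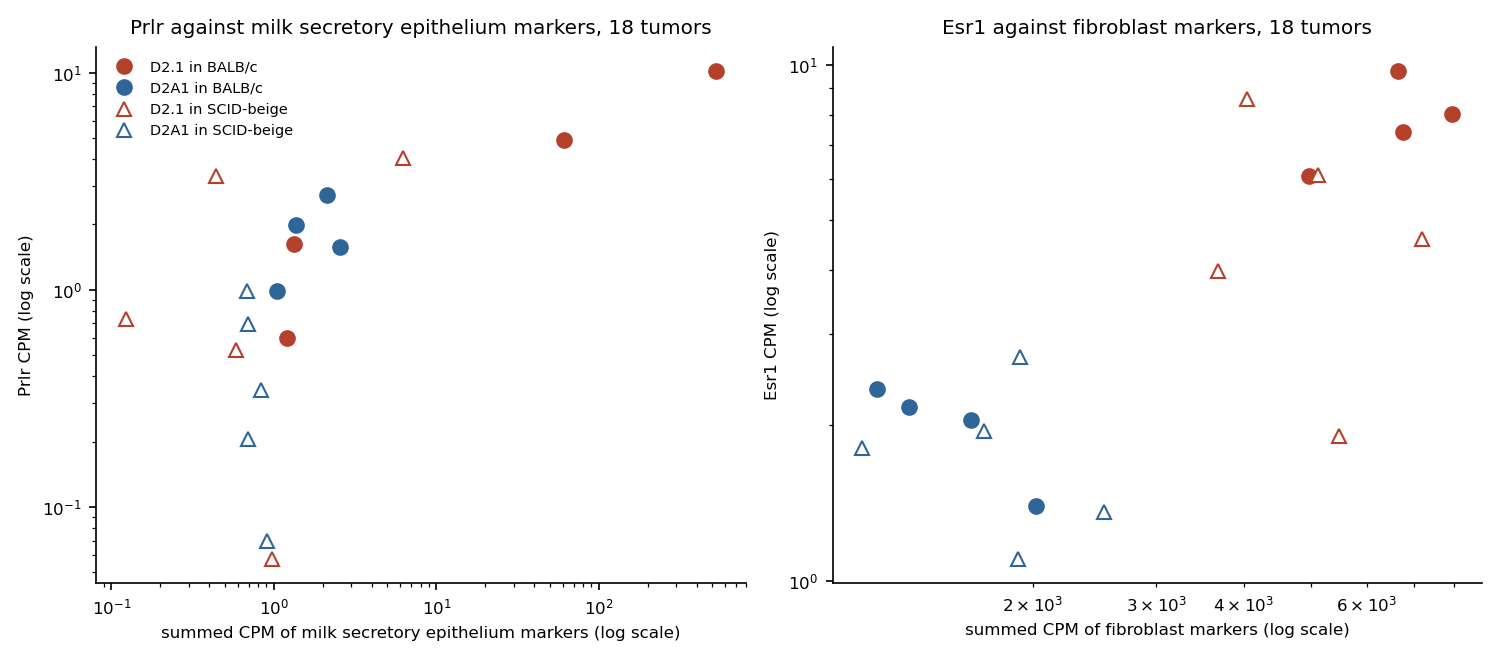
Points are the 18 tumors on log axes, red for D2.1 and blue for D2A1, filled circles for BALB/c and open triangles for SCID-beige; the left panel sets Prlr CPM (y) against the summed CPM of 9 milk secretory genes (x) and the right panel sets Esr1 CPM (y) against the summed CPM of 5 fibroblast genes (x). The highest Prlr value, 10.1 CPM, is in the tumor with 528 CPM of milk genes, and the D2.1 tumors lie to the right of the D2A1 tumors on the fibroblast axis.

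Pgr, the progesterone receptor, was at or near the limit of detection throughout. Cultured cells had 1 read in 1 of 6 libraries. In BALB/c hosts D2.1 tumors had 10, 5, 1 and 6 counts and D2A1 tumors 9, 6, 4 and 9, so the lines overlapped. In SCID-beige hosts D2.1 tumors had 3, 0, 3, 0 and 20 counts and D2A1 tumors 1, 0, 0, 3 and 0. The ratio between lines there was 5.87 with a counting interval of 2.04 to 23.2, which pools reads and leaves out the spread between tumors. The ratio rested on D2.1 tumor 5, which held 20 of the 26 D2.1 reads. No difference in Pgr between lines was detectable at this depth.

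The second question was whether the host changes these genes within a line. Of the 5 members that passed the filter in D2.1 tumors, 0 were called between BALB/c and SCID-beige, and DESeq2 called 0. Of all genes 0.891% were called, 0.871% higher and 0.0201% lower in BALB/c. An unadjusted p under 0.05 was found for 2 members, and for 1489 of all 14929 genes tested. In D2A1 tumors 4 passed and 0 were called, also 0 by DESeq2, where 1.17% of all genes were called, 0.906% higher and 0.261% lower in BALB/c. There 1 member had an unadjusted p under 0.05, as did 1472 of all 14572 genes tested. Both host comparisons share their tumors with the comparisons of lines above.

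In D2.1 tumors, Gata3 did not overlap between hosts. All 4 BALB/c tumors, at 56.0 CPM or more, lay above all 5 SCID-beige tumors, at 54.1 CPM or less, for a log2 fold change of 0.44 (SE 0.16, 95% interval 0.09 to 0.79, adjusted p = 0.318). Its exact 2-sided permutation p of 0.0159 is the smallest that 4 against 5 tumors allow, is unadjusted, and is 1 of 30 such tests of members; 3.15% of all genes were above without overlap in this comparison. Gata3 is also made by T cells. Summed T cell markers were at 63.4 to 167 CPM in these BALB/c tumors and at 8.24 to 20.4 CPM in the SCID-beige ones. The SCID-beige sum was mostly Cd4 and Cd2, with means of 7.67 and 4.29 CPM. Cd3d, Cd3e, Cd3g and Cd8a had means of 0.168, 0.106, 0.708 and 0.183 CPM there. In cultured D2.1, where 5 of those 6 T cell genes were at 0, Gata3 was at 27.1 to 35.8 CPM. The part of T cells in the host difference was not tested. Greb1 leaned toward SCID-beige, at 1.23 to 12.1 CPM there against 0.844 to 2.73 CPM in BALB/c, but the groups overlapped (log2 fold change -1.58, SE 0.61, adjusted p = 0.370). Esr1 leaned toward BALB/c by a log2 fold change of 0.66 (95% interval -0.18 to 1.49, adjusted p = 0.655). Foxa1 differed by -0.01 (95% interval -0.95 to 0.92). Prlr differed by 1.34 (95% interval -0.70 to 3.37), and by -0.63 without BALB/c tumors 1 and 4.

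In D2A1 tumors, Prlr was at 0.986 to 2.72 CPM in BALB/c and at 0.0697 to 0.990 CPM in SCID-beige, so the groups touched at 1 tumor each, and the log2 fold change of 1.94 (SE 0.60, 95% interval 0.63 to 3.26) had an adjusted p of 0.190. The milk protein genes summed to at most 2.54 CPM in these tumors, with Csn1s1, Csn1s2a, Wap and Lao1 at 0 in both hosts. Summed T cell markers were also higher in BALB/c, at 6.22 to 19.6 CPM against 1.01 to 3.61 CPM in SCID-beige. Of these, Cd4 alone went the other way, with means of 1.26 CPM in BALB/c and 1.64 CPM in SCID-beige. Summed macrophage markers were higher in BALB/c too, at 442 to 709 against 333 to 381 CPM. The part of these cells in the Prlr level was not tested. Pgr had 9, 6, 4 and 9 counts in BALB/c and 1, 0, 0, 3 and 0 in SCID-beige. The ratio was 7.76 with a counting interval of 2.71 to 30.4, which pools reads and leaves out the spread between tumors. Pgr did not pass the filter, and without the filter the adjusted p was 0.4999. The groups did not overlap, where 3.31% of all genes tested were above without overlap in this comparison. Esr1 (log2 fold change 0.16, 95% interval -0.62 to 0.93), Foxa1 (0.86, -0.26 to 1.99) and Gata3 (0.36, -0.29 to 1.004) had intervals that included 0. Greb1 did not pass the filter in D2A1, with 0 to 7 counts in BALB/c and 0 to 10 in SCID-beige.

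The difference between the host effects of the lines was tested as an interaction. Of 5 members tested 0 were called, where 0.0187% of all genes were called, with 0 at an unadjusted p under 0.05 and 0 by DESeq2. The largest interaction was that of Greb1, whose host difference was lower in D2.1 by 2.04 on the log2 scale (95% interval -4.45 to 0.37, adjusted p = 0.682). That of Gata3 was 0.05 (95% interval -0.56 to 0.66).

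Cultured cells and tumors come from separate tables and differ in tissue as well, so their levels are set side by side without a test. Table and tissue cannot be told apart here. In D2.1, mean Esr1 was 1.82 CPM ± 0.320 (SD, n = 3) in culture, 7.81 ± 1.502 (n = 4) in BALB/c tumors and 5.04 ± 2.50 (n = 5) in SCID-beige tumors. In D2A1 it was 0, then 1.99 ± 0.418 and 1.79 ± 0.620 CPM. Gata3 in D2.1 went from 31.6 ± 4.35 CPM in culture to 62.8 ± 7.81 in BALB/c and 47.3 ± 6.25 in SCID-beige, and in D2A1 from 2.59 ± 0.961 to 3.79 ± 0.577 and 2.96 ± 1.06. Foxa1 ran the other way, from 7.38 ± 1.55 CPM in cultured D2.1 to 4.09 ± 1.93 and 4.22 ± 1.67 in its tumors, and from 2.43 ± 0.312 in cultured D2A1 to 1.23 ± 0.429 and 0.672 ± 0.333. Greb1 was at 1.85 ± 0.884 CPM in cultured D2.1, 1.59 ± 0.818 in BALB/c and 4.92 ± 4.23 in SCID-beige, within its own spread. Ordered over the 6 groups, Gata3 and Foxa1 had all D2.1 groups above all D2A1 groups. For Esr1 the BALB/c D2A1, cultured D2.1 and SCID-beige D2A1 means of 1.99, 1.82 and 1.79 CPM lay within each other's SD.

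Levels of different genes were compared only per length, as deposited FPKM and within a table, because the lengths behind the FPKM differ between the tables. For Gata3 the implied length was 3215 bases in the culture table and 914 bases in the tumor table, and for Esr1 it was 6339 and 2689 bases. In D2.1 BALB/c tumors Gata3 had 67.6 FPKM ± 7.92 (SD, n = 4), Esr1 2.86 ± 0.551, Foxa1 2.24 ± 1.08, Prlr 1.71 ± 1.74, Greb1 0.576 ± 0.310 and Pgr 0.0748 ± 0.0477. The steps from Gata3 to Esr1 and from Greb1 to Pgr exceeded the SD of both neighbors, and each step between was within the SD of at least 1 neighbor. In D2A1 BALB/c tumors Gata3 led with 4.28 ± 0.680 FPKM, and Esr1, Prlr and Foxa1 at 0.760 ± 0.139, 0.744 ± 0.301 and 0.710 ± 0.270 FPKM could not be ordered. In SCID-beige tumors Gata3 again led, at 50.4 ± 6.58 FPKM in D2.1 and 3.26 ± 1.11 in D2A1, followed in D2.1 by Foxa1, Esr1 and Greb1 at 2.28 ± 0.917, 1.82 ± 0.884 and 1.78 ± 1.58 FPKM, which could not be ordered. In cultured D2.1 the order was Gata3 at 9.37 ± 0.765, Foxa1 at 2.20 ± 0.344, Esr1 at 0.276 ± 0.0651 and Greb1 at 0.216 ± 0.0971 FPKM, the last pair within their spread. In cultured D2A1 Gata3 and Foxa1 were within their spread, at 0.835 ± 0.289 and 0.798 ± 0.119 FPKM.

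The wider hormone pathway was read through 8 gene lists, each described by its counts and by its median beside that of all genes, without a test of the list. For these counts, the shares of all genes called higher and lower in D2.1 were 24.2% and 20.7% in culture, 16.8% and 15.8% in BALB/c tumors, and 17.2% and 14.8% in SCID-beige tumors. Other hormone receptors, 19 genes that include the thyroid, vitamin D and retinoid receptors, were called higher in D2.1 far more often than lower. Of 15 tested in culture 10 were higher and 1 lower in D2.1, of 16 in BALB/c tumors 11 and 0, and of 17 in SCID-beige tumors 10 and 1. Their median log2 fold changes were 0.66, 1.52 and 1.02, where those of all genes were -0.02, -0.02 and 0.02. Without D2.1 BALB/c tumors 1 and 4 the BALB/c counts were 9 and 0. Gper1, the membrane estrogen receptor, was at 17.4 ± 3.56 CPM in cultured D2.1 and 0.556 ± 0.189 in D2A1 (log2 fold change 4.95). Esr2, encoding estrogen receptor beta, went the other way in level: it had 10 to 22 counts in cultured D2.1 and 17 to 27 in D2A1 (log2 fold change -0.48, adjusted p = 0.37), and in BALB/c tumors 0 to 2 counts in D2.1 and 2 to 16 in D2A1, too few to pass the filter.

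**Figure D4:**
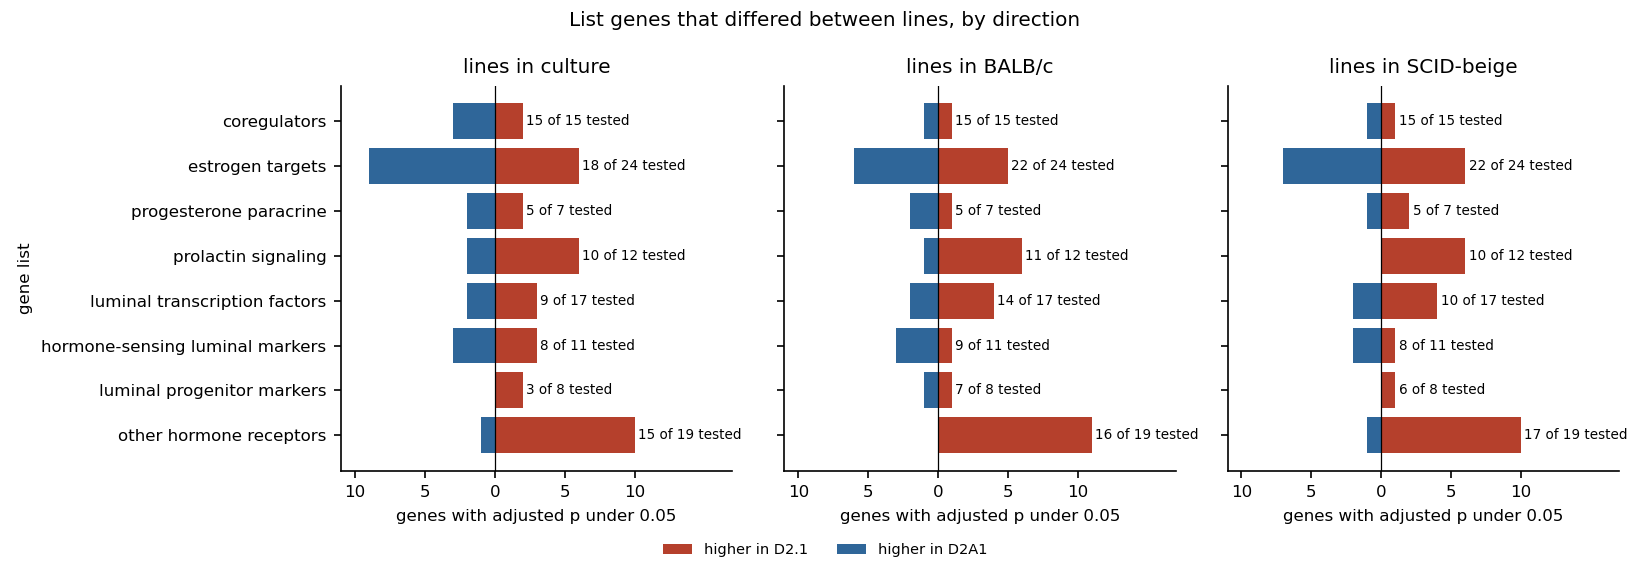
Bars count the genes of each list (y axis) with an adjusted p under 0.05 (x axis), red to the right when higher in D2.1 and blue to the left when higher in D2A1, in culture, BALB/c tumors and SCID-beige tumors; labels give the genes tested of the genes listed. Other hormone receptors have 10, 11 and 10 genes to the right, whereas estrogen targets divide, with 6, 5 and 6 to the right and 9, 6 and 7 to the left.

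Estrogen target genes did not move one way. Of 24 listed, 18 were tested in culture with 6 higher and 9 lower in D2.1, 22 in BALB/c tumors with 5 and 6, and 22 in SCID-beige tumors with 6 and 7, and the medians were -0.55, -0.0045 and -0.23. Without D2.1 BALB/c tumors 1 and 4 the BALB/c counts were 4 and 4. Car12, a carbonic anhydrase, was higher in D2.1 in each setting, at 342 ± 58.9 against 20.7 ± 3.8 CPM in culture, 379 ± 35.4 against 33.0 ± 3.34 CPM in BALB/c and 437 ± 110 against 40.5 ± 8.85 CPM in SCID-beige (log2 fold changes 4.04, 3.53 and 3.43). Ret, a receptor tyrosine kinase, was at 16.7 ± 9.24 against 1.32 ± 0.815 CPM in BALB/c tumors and 7.83 ± 5.45 against 0.934 ± 0.540 CPM in SCID-beige tumors. The transcription factor Myb was higher in D2.1 tumors by log2 fold changes of 2.56 and 2.48. Cxcl12, a chemokine, had 0 reads in cultured D2.1 and 9.63 ± 1.64 CPM in cultured D2A1, at least 63.2-fold lower in D2.1. Myc was lower in D2.1 BALB/c tumors (log2 fold change -2.06), the growth factor Tgfa lower in D2.1 tumors of both hosts (-2.75 and -1.92) and Igfbp4 lower in D2.1 SCID-beige tumors (-2.09). Tff1 had 0 counts in all 24 libraries.

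Genes of progesterone signaling to neighboring cells divided too, with 2 higher and 2 lower of 5 tested in culture, 1 and 2 of 5 in BALB/c, and 2 and 1 of 5 in SCID-beige, and medians of 0.20, 0.12 and 0.86. Wnt4, a secreted progesterone target, was lower in D2.1 throughout, at 0.721 ± 0.184 against 23.5 ± 6.72 CPM in culture, 7.64 ± 6.00 against 41.5 ± 13.3 CPM in BALB/c and 8.09 ± 8.07 against 78.5 ± 24.03 CPM in SCID-beige (log2 fold changes -5.01, -2.43 and -3.28). Areg, encoding amphiregulin, was higher in cultured D2.1 (log2 fold change 2.42, adjusted p = 0.023), a call lost without D2.1 library 1 or 2 or D2A1 library 2 or 3 (adjusted p up to 0.0865). It was lower in D2.1 BALB/c tumors (-1.07, adjusted p = 0.040), a call lost without any 1 of D2.1 tumors 1 to 3 or D2A1 tumors 1, 3 and 4 (adjusted p up to 0.0977). Tnfsf11, encoding RANKL, had 0 counts in culture and 3 to 17 counts in D2.1 BALB/c tumors, against 0 or 1 in D2.1 SCID-beige tumors.

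Prolactin signaling genes were more often called higher than lower in D2.1, with 6 higher and 2 lower of 10 tested in culture, 6 and 1 of 11 in BALB/c, and 6 and 0 of 10 in SCID-beige, and medians of 0.50, 0.74 and 0.66, beside -0.02, -0.02 and 0.02 for all genes. Without D2.1 tumors 1 and 4 the BALB/c counts were 4 and 0. Stat5a, the transducer of the prolactin receptor, was at 39.6 ± 5.43 against 12.4 ± 3.48 CPM in culture, 46.8 ± 1.63 against 19.9 ± 2.71 CPM in BALB/c and 38.1 ± 11.8 against 19.2 ± 3.61 CPM in SCID-beige (log2 fold changes 1.67, 1.24 and 0.99). Cish, a feedback target of STAT5, was higher in D2.1 tumors of BALB/c (1.69, adjusted p = 0.0032) and SCID-beige mice (1.17, adjusted p = 0.015), and in culture it was at 0.449 ± 0.195 against 1.05 ± 0.299 CPM (adjusted p = 0.052). Socs3 was higher in cultured D2.1 (2.50) and Socs1 lower (-0.99). Elf5, the alveolar factor downstream of prolactin, had 0 to 231 counts in D2.1 BALB/c tumors and 1 to 11 in D2A1 (adjusted p = 0.095). Prl itself had 0 CPM in every group.

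Luminal transcription factors gave 3 higher and 2 lower of 9 tested in culture, 4 and 2 of 14 in BALB/c and 4 and 2 of 10 in SCID-beige, with medians of -0.14, 0.68 and 0.41. Tfap2a was higher in D2.1 by log2 fold changes of 1.49, 1.42 and 1.35. Tbx3, a factor of hormone-sensing cells, was lower in D2.1: 5 reads in all of cultured D2.1 against 610 in D2A1, and log2 fold changes of -2.42 in BALB/c and -3.68 in SCID-beige, the BALB/c call being lost without D2.1 tumor 3 (adjusted p = 0.0598) or tumor 4 (0.0583). Markers of hormone-sensing luminal cells gave 3 higher and 3 lower of 8 in culture, 1 and 3 of 9 in BALB/c and 1 and 2 of 8 in SCID-beige (medians -0.07, -0.44 and 0.17). Without D2.1 BALB/c tumor 2 the BALB/c counts were 4 and 2, and without D2.1 BALB/c tumor 3 they were 1 and 1. Markers of luminal progenitors gave 2 and 0 of 3, 1 and 1 of 7, and 1 and 0 of 6 (medians 1.19, -0.24 and -0.32). Among these, Aldh1a3, a retinaldehyde dehydrogenase, was at 26.0 ± 9.57 against 0.641 ± 0.444 CPM in culture, 25.2 ± 9.89 against 1.39 ± 0.988 CPM in BALB/c and 66.0 ± 32.9 against 1.36 ± 0.874 CPM in SCID-beige (log2 fold changes 5.34, 4.19 and 5.59). Coregulators of nuclear receptors gave 2 higher and 3 lower of 15 in culture and 1 and 1 of 15 in each host (medians -0.10, 0.11 and 0.14). Kmt2d, a histone methyltransferase, was higher in D2.1 in each setting (0.78, 1.28 and 0.97), and Ncoa2 was lower in cultured D2.1 (-0.93).

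Between hosts, 1 of 82 distinct list genes tested (1.22%) was called in D2.1 tumors, beside 0.891% of all genes, and 4 of 80 (5%) in D2A1 tumors, beside 1.17%. In D2.1 the gene was the luminal factor Ehf, at 5.41 ± 4.77 CPM in BALB/c and 0.372 ± 0.242 in SCID-beige (log2 fold change 3.88, adjusted p = 0.022). The call was lost without BALB/c tumor 1 (adjusted p = 0.0949) or 4 (0.0688), without SCID-beige tumor 1 (0.0571) or 5 (0.0576), and without BALB/c tumors 1 and 4 together (0.509). In D2A1 tumors Ly6a (log2 fold change 1.65, adjusted p = 0.015) and Lifr (1.10, adjusted p = 0.042) were higher in BALB/c and Rerg (-1.74, adjusted p = 0.014) and Gper1 (-0.92, adjusted p = 0.047) lower. Each of these 4 calls was lost without 1 or more single tumors, Rerg and Ly6a without BALB/c tumor 1 (adjusted p = 0.0592 and 0.0558) or BALB/c tumor 4 (0.0615 and 0.0788), and Ly6a also without SCID-beige tumor 4 (0.0554). Lifr was lost without any 1 tumor (adjusted p up to 0.193), and Gper1 without any 1 tumor but BALB/c tumor 3 or SCID-beige tumor 2 (up to 0.188). Other cell types moved with line and host in the tumors. T cell markers summed to 63.4 to 167 CPM in D2.1 and 6.22 to 19.6 CPM in D2A1 of BALB/c hosts, B cell markers to 6.33 to 77.3 and 0.232 to 0.778 CPM, and endothelial markers to 72.6 to 120 and 191 to 254 CPM. Macrophage markers summed to 333 to 914 CPM over all tumors, adipocyte markers to 4.67 to 767 CPM and skeletal muscle markers to 1.78 to 375 CPM. In culture, T cell, B cell and endothelial markers summed to at most 0.266, 0.327 and 0.762 CPM. The part of these cell types in the tumor differences was not tested.

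Across the 9 tumors of a line, the genes whose log2 CPM was most like each member were named by Pearson's r among 12697 protein-coding genes in D2.1 and 12359 in D2A1. These are descriptions over tumors that share host and tumor composition. The highest r among so many genes over only 9 tumors can be high by chance. No chance level was set, so no relation is read from these values. In D2.1, Prlr ran with Itih5 (r = 0.98) and the keratin Krt19 (0.98). Gata3 ran with Trpv2 (0.97), Fam83f (0.96) and the integrin Itgax (0.95), Greb1 with Mmd (0.97), Lgr6 (0.94) and Lclat1 (0.94), Foxa1 with Nup98 (0.96), Exoc2 (0.95) and Abhd5 (0.95), and Esr1 with Bmp2 (0.93), Myo1d (0.91) and Diaph1 (0.90). In D2A1, Prlr ran with Nlrp3 (0.97) and Nfkb1 (0.96), Foxa1 with Hmgn2 (0.97), Mical1 (0.96) and Ifi213 (0.96), Gata3 with Afg1l (0.94), Acsl5 (0.94) and Wdr41 (0.90), and Esr1 with Tfg (0.89), Ube2d3 (0.89) and Nr2f1 (0.89). No gene named for a member in 1 line was named for it in the other, which picks by chance would also give. Pgr in both lines, with 48 and 32 reads, and Greb1 in D2A1, with 33 reads, were too sparse for this.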

How the data were processed

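RNA was sequenced by Novogene on an Illumina NovaSeq in 24 libraries of cultured cells and tumors. The authors deposited read counts per gene, and the FPKM they made from them, in 1 table for culture and 1 for tumors; the submitters' notes name STAR and mm10, and the counter, annotation and strand setting are not given in the sources used here. Gene symbols and positions were joined by Ensembl gene id from the GENCODE mouse annotation (GRCm38), and promoter sequences came from RefSeq (GRCm38.p6). Rows with no matching gene in the annotation held 0.0969% of culture and 0.0446% of tumor counts. FPKM lengths differed over 1.5-fold between the tables for 59.5% of 13281 genes, so FPKM were used only within a table.

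Counts were tested with edgeR 4.0.16 (R 4.3.3; TMM, filterByExpr, robust quasi-likelihood fit), each comparison on its own groups, with Benjamini-Hochberg adjustment over all genes and a threshold of 0.05. SE is the log2 fold change divided by the root of its F statistic. Single genes were also compared by exact 2-sided permutation of log2 CPM (prior count 2), whose smallest p is 0.1 for 3 against 3, 0.0286 for 4 against 4, 0.00794 for 5 against 5 and 0.0159 for 4 against 5. The fits were also run on simulated counts with 200 genes changed by a log2 fold change of 2. Between lines in culture, BALB/c and SCID-beige, edgeR recovered 98%, 88% and 91% of these genes. False calls made up 6.67%, 6.88% and 4.21% of its calls, and 16.9%, 22.2% and 15.1% of those of DESeq2. DESeq2 was therefore the less strict of the 2. Counts of 38 replicate pairs differed beyond sampling noise, so no library was merged in the fits. Only the ratios with a counting interval summed the reads of a group, and those intervals are too narrow where replicates differ.

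No pairing of samples by replicate number is stated, and the main fits used none. Between lines, libraries of the same number had correlations of deviations of 0.184 to 0.491 in culture and 0.101 to 0.493 in BALB/c. Every pair was over 0.1 there, and in no other comparison. The best match was the library of the same number in 2 of 3 pairs in culture and in 1 of 4 in BALB/c. A pairing is therefore not established. Alternatives were DESeq2 1.42.0, its size factors within edgeR, no filter, a filter of 10 counts, a replicate block, a fit of all 4 tumor groups, and leaving out each library; leaving out D2.1 BALB/c tumors 1 and 4 was chosen after seeing the data. The genes and lists were chosen with earlier results of these data known. From each list up to 3 called genes a direction with the largest change and at least 1 CPM were named, with 9 further genes fixed by name (such as Esr2, Elf5 and Wnt4). Prl was named after its values were seen. A few genes that this rule names are not reported here.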

Additional observations from a re-analysis of the deposited data

Results flagged for a closer look

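In 64 groups of 4 or 5 tumors, each a gene or a marker sum in 1 group, the highest or lowest tumor stood apart from the rest by Dixon's criterion in 6, where chance gives about 1 in 20. Of these, 2 concerned the hormone genes. Greb1 in D2A1 tumors of SCID-beige mice was highest in tumor 4, at 0.619 CPM from 10 counts, with the other 4 at 0.140 CPM or below. Pgr in D2.1 tumors of SCID-beige mice was highest in tumor 5, at 1.26 CPM from 20 counts, with the others at 0.184 CPM or below.

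The other 4 concerned sums of cell type markers. The milk protein genes reached 528 CPM in D2.1 BALB/c tumor 1 and 6.27 CPM in D2.1 SCID-beige tumor 4. The mammary epithelial markers reached 1248 CPM in 1 D2.1 SCID-beige tumor, and the skeletal muscle markers reached 62.5 CPM in 1 D2A1 BALB/c tumor.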

How the results depend on the processing

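Gata3, Foxa1 and Esr1 kept their calls between lines in every alternative run, and Greb1 kept its calls in culture and SCID-beige tumors. In BALB/c the log2 fold change of Greb1 was 2.17 without D2.1 tumor 1, 2.62 without D2A1 tumor 1 and 1.93 without D2.1 tumors 1 and 4, each no longer called. Prlr in SCID-beige gained a call at 2.21 without D2.1 tumor 3. Without D2.1 BALB/c tumors 1 and 4, Prlr turned to -0.72 between lines in BALB/c and -0.63 between hosts in D2.1. Near 0, Foxa1 between hosts in D2.1 ranged from -0.27 to 0.18 when 1 tumor was left out and turned to 0.0028 to 0.18 when 1 of 5 tumors was left out (0.18, 0.15, 0.0028, 0.10 and 0.14) and to 0.041 without tumors 1 and 4. The Gata3 interaction turned to between -0.18 and -0.0040 when 1 of 5 tumors was left out (-0.028, -0.015, -0.0040, -0.0043 and -0.18) and to -0.11 without tumors 1 and 4. The causes were not tested.

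Genes called between hosts were the least stable count. In D2.1 the count of 133 became 461 with DESeq2, 275 without the filter, 261 with all 4 tumor groups in one fit, 11 without tumors 1 and 4, and 26 to 314 when 1 tumor was left out, the extremes being without BALB/c tumors 1 and 2. In D2A1 the count of 170 became 569 with DESeq2 and 27 to 172 when 1 tumor was left out, lowest without BALB/c tumor 4. Counts between lines ranged over 4375 to 5908 in culture, 4074 to 5046 in BALB/c and 3969 to 4916 in SCID-beige when 1 library was left out. The small list counts moved as well: luminal transcription factors higher in D2.1 went from 4 to 7 in BALB/c without D2.1 tumor 2, and from 3 to 1 in culture without D2.1 library 2 or D2A1 library 1 or 2, and progesterone genes from 1 to 0 in BALB/c without any 1 of D2.1 tumors 2 to 4 or D2A1 tumors 2 and 3. Between lines, every other move of a list count by over 1.5 times was in a count of 3 or fewer genes.

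With the replicate number as a block, genes called between hosts were 14 in D2.1 and 0 in D2A1. The correlations of deviations there were -0.199 to 0.170 and -0.439 to -0.187, and between lines in SCID-beige -0.160 to 0.343. Under the block 7539 genes were called in culture, 7116 in BALB/c and 5311 in SCID-beige, and it changed no call of the 6 genes. Depth limits Pgr throughout and Greb1 in D2A1, whose counts lie at or near the floor of 3.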
